A study of Mus musculus with 15 samples.

Results

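Rab GTPases are small membrane switches that direct vesicle traffic, and the decay of their mRNAs was followed in C2C12 mouse myoblasts after transcription had been blocked. Members were the probe sets whose platform annotation gave a single gene symbol made of Rab, a number and an optional letter, with the probe set of the highest 0 min mean kept where a gene had several. This gave 62 probe sets for 59 genes, out of 25175 probe sets and 19452 genes with a single symbol. Only Rab2a, Rab5b and Rab11b had more than 1 probe set.

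C2C12 cells are immortalised muscle precursors of the mouse, able to form myotubes once serum is reduced. All 15 samples were proliferating C2C12 (LKO1) cells, which carry an empty vector and were grown in puromycin below confluency, so each result below belongs to 1 cell line. Transcription was inhibited with actinomycin D at 8 µg/mL for 30 min, and cells were then collected at 0 min and a further 10, 50, 110 and 230 min later, in 3 replicate time courses with 1 Affymetrix Mouse Gene 1.0 array per sample. The 0 min cells had therefore already spent 30 min in the drug, and no sample without drug was used here. The labels do not say whether the 3 time courses came from separate cultures, so the p-values measure the spread between these samples, which may be technical.

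Each Rab protein binds GTP through a guanine nucleotide exchange factor (GEF), recruits effectors such as tethers and motors to its membrane, and is switched off by a GTPase-activating protein (GAP). Rabs are held on membranes by geranylgeranyl groups, which Rab escort proteins and a dedicated transferase add, and GDP dissociation inhibitors (GDIs) return them to the cytosol. Different Rabs mark different compartments, from the endoplasmic reticulum (ER) and Golgi to endosomes, lysosomes and the cilium, and in muscle several take part in moving the glucose transporter GLUT4 and integrins to the cell surface.

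The deposited values are linear ratios, each probe set divided by the 5th percentile of its array, and a ratio of 1 marks the dim end of the probe sets. The median level of the expressed probe sets averaged 8.54 at 0 min, 7.90 at 10 min, 7.59 at 50 min, 4.73 at 110 min and 3.85 at 230 min. The 110 min array of time course 1 and the 230 min array of time course 2 had the lowest such medians of their times (3.91 and 2.89), and many Rab transcripts were lowest on these arrays too. Myoblast markers were present, with 9 of 10 past the level filter and a summed ratio of 175 to 232 on the 0 min arrays. Of the markers of differentiated myotubes 5 of 12 passed (summed 31.6 to 54.1), of fibroblasts or adipocytes 2 of 9 (21.8 to 25.5), and of endothelial or blood cells 1 of 7 (10.9 to 11.8). Their part in the results was not tested.

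A transcript was taken as expressed when its ratio was above the median of all probe sets on its array in at least 2 of the 3 samples at 0 min, which 37 Rab genes met and 22 did not. The expressed genes covered every compartment. They were 11 of 16 Rabs of the ER and Golgi, 8 of 9 of the early endosome, 8 of 11 of recycling and surface delivery, 5 of 10 of late endosomes, lysosomes and autophagy, 2 of 8 of regulated secretion, and 3 of 5 of the cilium and other roles. Their mean ratios at 0 min ran between 3.03 and 66.1. A ratio depends on the probes of each gene, so the genes are not ranked by it.

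Of the Rabs of regulated secretion, which dock synaptic vesicles and secretory granules in neurons, glands and blood cells, Rab3a, Rab3b, Rab3c, Rab26, Rab27a and Rab37 did not pass, and Rab3d and Rab27b did. Rab25 and Rab17, known for epithelial traffic, and Rab38 and Rab32, known for melanosomes, did not pass either. The 22 genes had 0 min means of 1.11 to 2.55. The closest to passing were Rab20, with 2.33, 2.91 and 2.40 on arrays with medians of 2.60, 2.74 and 2.42, and Rab44, with 1.8, 2.71 and 2.41. On the other side of the threshold lay Rab36, with 3.00, 3.26 and 2.84, and Rab43, with 3.23, 3.76 and 2.64. These transcripts are listed near the dim end of the arrays, which does not show that they were absent.

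**Figure D1:**
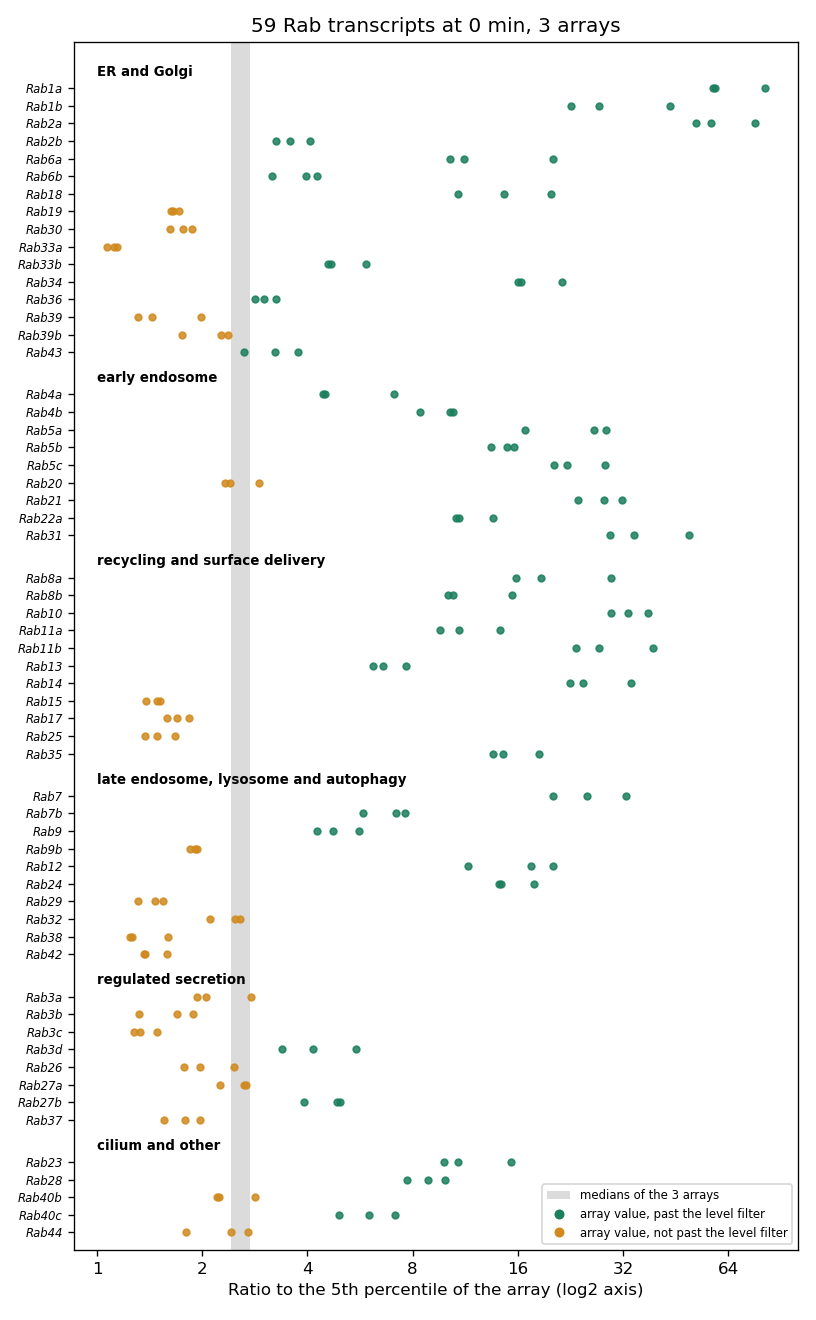
Ratio to the 5th percentile of the array at 0 min (log2 axis) of the 59 Rab genes, grouped by compartment, with 1 point for each of the 3 arrays. The 37 genes past the level filter (green) had mean ratios of 3.03 to 66.1, the other 22 (orange) had 1.11 to 2.55, and the grey band spans the medians of the 3 arrays, 2.42 to 2.74.

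Every expressed Rab transcript fell over the time course in the main trend. In a linear trend of log2 ratio against time (limma, replicate time course as a block, adjusted p under 0.05 over 12544 expressed probe sets), 37 of 37 fell, where 96.4% of all expressed probe sets fell. The Rab genes had a median of -0.22 log2 per hr and all expressed probe sets one of -0.25, for which the 10th to 90th percentile ran from -0.43 to -0.15. Of the Rab genes 25 were shallower than the median expressed slope and 12 were steeper, where 50% of all probe sets lie on each side. The standard errors of the slopes were 0.0493 to 0.0575. Without time course 2, 26 of 37 fell (81.4% of all expressed probe sets), and without the 230 min arrays 29 (86.5%). On all arrays, 36 of 37 fell with no replicate block (95.5%), with no filter on level (75.8% of all probe sets) or with a robust limma fit (96.6%). On the scale of the 5th percentile nearly every transcript falls. With each array divided by the median of all its probe sets 8 Rab transcripts fell (37.8% of all expressed probe sets did) and 0 rose. With the 75th percentile in its place 5 fell (15.7%) and 24 rose (50%).

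Most Rab transcripts first differed from 0 min at 110 min. At 10 min 0 of 37 Rab transcripts differed from 0 min (limma with time as a factor), as for 0% of all expressed probe sets. Of the Rab transcripts 0 passed an unadjusted p of 0.05, where 124 of 12544 expressed probe sets were lower and 7 higher. At 50 min 0 differed, where 1.99% of all expressed probe sets were lower. At an unadjusted p under 0.05 the 50 min values of Rab40c and Rab23 were lower and that of Rab8a was higher. At that threshold 1219 of all 12544 expressed probe sets were lower and 27 higher, so these calls do not set the Rab genes apart. At 110 min 30 of 37 were lower than at 0 min (84.8% of all expressed probe sets), and at 230 min 36 of 37 (94.3%). The 7 that did not pass at 110 min were Rab1a, Rab1b, Rab2a, Rab2b, Rab3d, Rab6a and Rab14, and Rab1b alone did not pass at 230 min. Without time course 1, 7 passed at 110 min (47% of all expressed probe sets), and without time course 2, 22 passed at 230 min (72.8%). With each array divided by the median of all its probe sets 5 passed at 110 min (17%). By their means Rab6a and Rab14 had lost more after 110 min than before it, with 83.6% (Rab6a) and 87.6% (Rab14) of the 0 min mean left at 110 min and 55.8% (Rab6a) and 68.1% (Rab14) at 230 min. Time course 1 went the other way, at 20.21, 8.56 and 9.49 for Rab6a at 0, 110 and 230 min. For Rab14 it had 33.67, 18.53 and 21.64, while time courses 2 and 3 of both genes fell mostly after 110 min.

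The means of the 37 transcripts lay at 63.4 to 134% of their 0 min means at 50 min (median 95.8%), at 36.0 to 87.6% at 110 min (median 66.6%) and at 24.4 to 77.7% at 230 min (median 58.8%). The median expressed probe set was at 92.3%, 62.0% and 54.0% at these times. In 32 of 37 Rab genes every 230 min array was below every 0 min array, which held for 84.3% of all expressed probe sets. The exceptions were Rab1b, Rab8a, Rab11a, Rab18 and Rab34. At 50 min 13 of 37 Rab means were above their 0 min means, against 27.2% of all expressed probe sets.

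**Figure D2:**
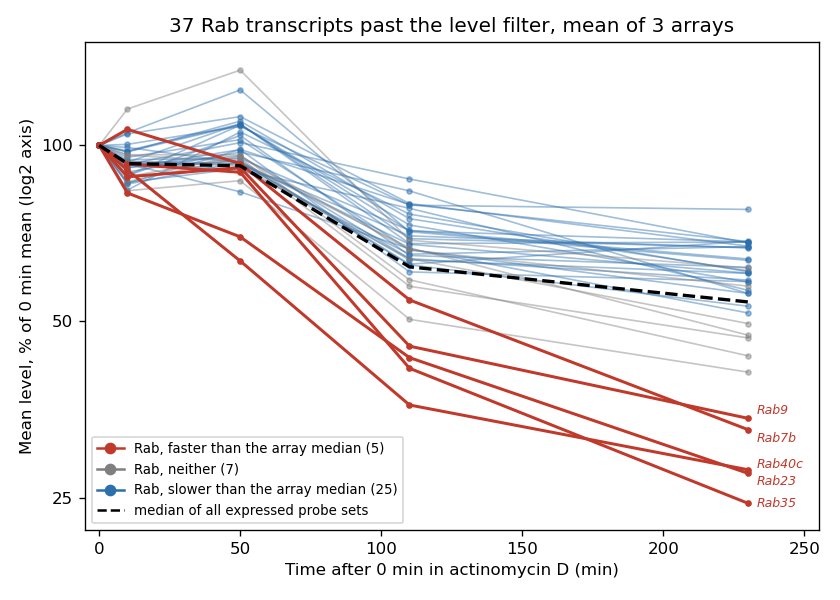
Mean ratio of 3 arrays as a percentage of the 0 min mean (log2 axis) against time in min for the 37 expressed Rab transcripts, with the median of all expressed probe sets dashed. The 5 transcripts in red, which fell faster than the median expressed level of the arrays, ended at 24.4 to 34.2%. The 25 in blue, which fell slower than it, ended at 51.7 to 77.7%, though 0 were slower than the median of all probe sets.

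To set Rab transcripts against the rest of the arrays, the median log2 ratio of the expressed probe sets on each array was subtracted. This median fell by 0.318 log2 per hr, more than the median of the single slopes, so that a transcript of average slope lies above 0 on this relative scale (the median over all expressed probe sets was 0.07). By the same limma trend 5 Rab transcripts fell faster than the array median (15.6% of all expressed probe sets did), 25 fell slower (50.2%) and 7 did neither. With the median of all probe sets as the reference, in place of the expressed ones, 8 were faster (37.8% of all expressed probe sets) and 0 slower (1.96%). That is the same fit as the decay trend on arrays divided by this median. Relative to the expressed median, without time course 3, 15 were slower (38.1%). At the end point, 230 against 0 min, 5 of 37 were lower than the array median (14.5% of all expressed probe sets) and 23 were higher (44%), or 10 without time course 3 (26.8%). The median relative slope was 0.10 log2 per hr for Rab genes. The rank of a slope among the expressed probe sets does not depend on the scaling, and the median Rab transcript had 62.5% of them steeper than itself.

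The 5 faster transcripts were Rab35, Rab40c, Rab23, Rab7b and Rab9. Rab35 returns cargo from endosomes to the plasma membrane and acts in cytokinesis. Its ratios in time courses 1, 2 and 3 were 18.4, 13.6 and 14.5 at 0 min, 17.1, 14.3 and 11.8 at 10 min, 14.9, 13.9 and 13.0 at 50 min, 5.56, 5.92 and 7.83 at 110 min, and 4.49, 2.95 and 3.91 at 230 min. The 3 arrays at 110 min and the 3 at 230 min all lay below every earlier array. Rab35 averaged 3.78 ± 0.78 at 230 min and 15.5 ± 2.5 at 0 min (SD, n = 3 each), or 24.4%. Its slope of -0.56 ± 0.05 log2 per hr (SE, limma, adjusted p = 7.1e-15) was steeper than those of all but 3.01% of expressed probe sets. Relative to the array median the slope was -0.24 ± 0.03 (SE, limma, adjusted p = 1e-06).

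Rab40c carries a SOCS box and serves as a subunit of a ubiquitin ligase. Its ratios were 7.12, 6.0 and 4.91 at 0 min, 6.23, 5.40 and 4.73 at 10 min, 3.73, 3.92 and 3.79 at 50 min, 2.24, 2.36 and 1.89 at 110 min, and 1.69, 1.34 and 2.00 at 230 min. All 3 arrays were already lower at 50 min than any at 0 or 10 min, though the contrast of 50 with 0 min did not pass (-0.64 log2; limma, adjusted p = 0.1). The slope was -0.49 ± 0.05 log2 per hr (SE), with 5.73% of expressed probe sets steeper, and the relative slope was -0.17 ± 0.04 (limma, adjusted p = 0.0012). The mean at 230 min was 27.9% of that at 0 min.

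Rab23 restrains Hedgehog signalling and is linked to the cilium. Its ratios were 15.3, 9.83 and 10.8 at 0 min, 11.9, 9.03 and 8.85 at 10 min, 7.71, 9.61 and 7.74 at 50 min, 3.74, 5.33 and 6.51 at 110 min, and 3.92, 2.39 and 3.57 at 230 min. The 0 and 230 min arrays were well apart, and 27.5% of the 0 min mean was left at 230 min. The slope was -0.48 ± 0.05 log2 per hr (SE; 6.58% of expressed probe sets were steeper) and the relative slope was -0.16 ± 0.03 (limma, adjusted p = 0.00016).

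Rab7b and Rab9 both act between late endosomes and the trans-Golgi network, Rab9 in the return of mannose 6-phosphate receptors. Rab7b had ratios of 7.16, 7.63 and 5.75 at 0 min, 6.82, 8.50 and 6.56 at 10 min, 5.61, 7.0 and 6.51 at 50 min, 2.00, 4.61 and 4.57 at 110 min, and 2.54, 1.54 and 2.63 at 230 min. Rab9 had 5.60, 4.74 and 4.27 at 0 min, 4.59, 4.25 and 4.07 at 10 min, 4.32, 4.42 and 4.65 at 50 min, 1.65, 2.72 and 2.26 at 110 min, and 1.51, 1.51 and 1.97 at 230 min. Both transcripts stayed near their starting level through 50 min and lay below it on every later array, with 32.7% (Rab7b) and 34.2% (Rab9) left at 230 min. The slope of Rab7b was -0.47 ± 0.06 log2 per hr, and its relative slope was -0.15 ± 0.03 (SE, limma, adjusted p = 0.0011). The slope of Rab9 was -0.43 ± 0.05, and its relative slope was -0.11 ± 0.03 (limma, adjusted p = 0.0054). Without time course 1 the relative slope of Rab9 was -0.057 and no longer passed (limma, adjusted p = 0.17).

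**Figure D3:**
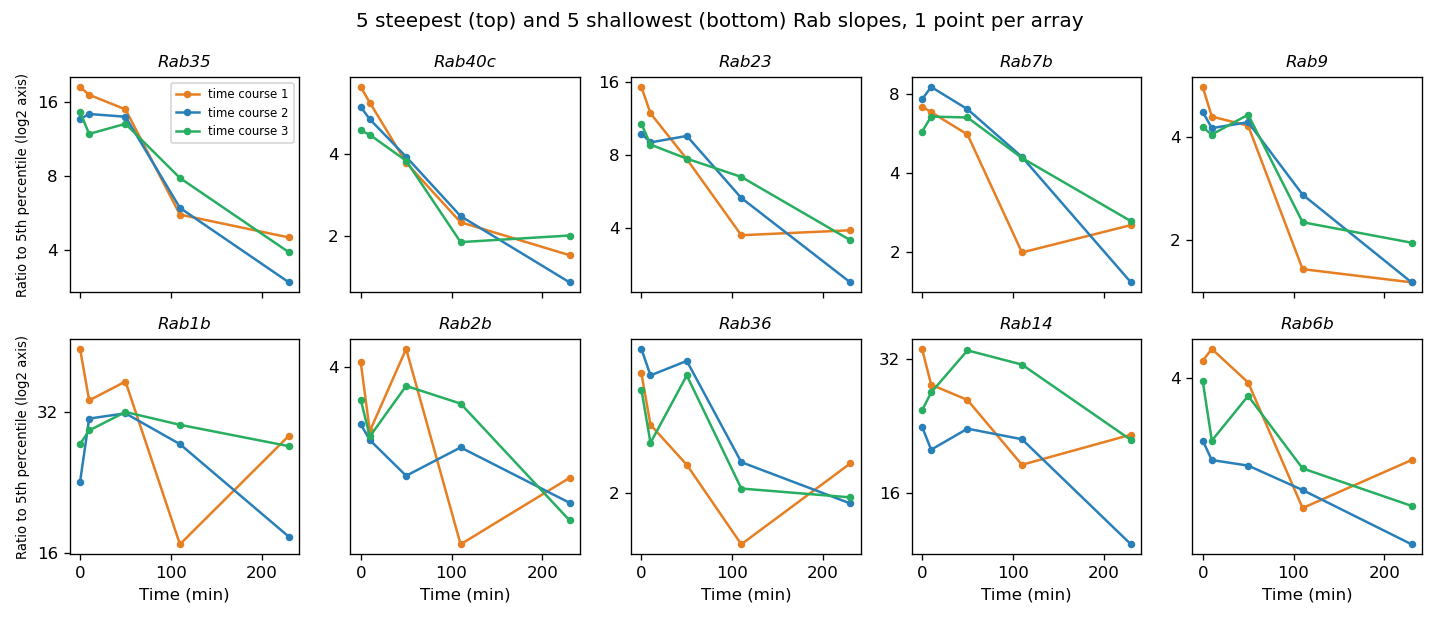
Ratio to the 5th percentile of the array (log2 axis) against time in min for the 5 Rab transcripts with the steepest slopes (top) and the 5 with the shallowest (bottom), with 1 line per replicate time course and 1 point per array. The top row fell on all 3 courses, to 1.34 to 4.49 at 230 min, while in the bottom row the lines cross and time course 1 reached its lowest value at 110 min in each gene.

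The 5 shallowest slopes were those of Rab1b, Rab2b, Rab36, Rab14 and Rab6b, all Rabs of the ER and Golgi apart from Rab14, which is grouped with recycling. Rab2b, Rab36 and Rab6b had 0 min means of only 3.63, 3.03 and 3.79, where 1 marks the dim end. Their slopes are therefore no clear measure of slow decay. All 11 ER and Golgi transcripts fell, their median being -0.18 log2 per hr, 10 fell slower than the array median and 0 faster, and Rab33b, which acts at the Golgi and in autophagosome formation, did neither. These calls of slower, here and in the groups below, were absent with the median of all probe sets as the reference. They stand beside 50.2% slower and 15.6% faster among all expressed probe sets.

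Rab1b, which with Rab1a drives ER-to-Golgi transport, had ratios of 43.7, 22.7 and 27.4 at 0 min, 33.9, 31 and 29.3 at 10 min, 37.2, 31.8 and 32.1 at 50 min, 16.7, 27.4 and 30.1 at 110 min, and 28.5, 17.3 and 27.1 at 230 min. The 0 and 230 min arrays overlapped, since time courses 1 and 3 ended above the 0 min value of time course 2. Its slope was -0.12 ± 0.05 log2 per hr (SE, limma, adjusted p = 0.033), shallower than those of 95.1% of expressed probe sets. This fall did not pass without time course 1 (limma, adjusted p = 0.092), without time course 2 (limma, adjusted p = 0.17) or with no replicate block (limma, adjusted p = 0.052). Nor did it pass with no filter on level, without the 230 min arrays or with a robust fit (limma, adjusted p = 0.071, 0.091 and 0.053). Without the 110 min array of course 1 and the 230 min array of course 2 the slope was -0.057 (limma, adjusted p = 0.18). It passed without time course 3, without the 0 min arrays and with log2(ratio + 1). The relative slope was 0.20 ± 0.03 (limma, adjusted p = 7.6e-05). At 230 min 77.7% of the 0 min mean was left (limma, adjusted p = 0.13).

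Rab2b, which like Rab2a acts in transport between ER and Golgi, had 4.07, 3.26 and 3.56 at 0 min, 3.18, 3.08 and 3.12 at 10 min, 4.27, 2.71 and 3.74 at 50 min, 2.12, 3.00 and 3.51 at 110 min, and 2.69, 2.46 and 2.31 at 230 min. Rab36, a Golgi-associated Rab, had 3.00, 3.26 and 2.84 at 0 min, 2.52, 2.98 and 2.37 at 10 min, 2.20, 3.13 and 2.98 at 50 min, 1.68, 2.22 and 2.03 at 110 min, and 2.21, 1.93 and 1.97 at 230 min. Rab6b, which acts in retrograde Golgi transport, had 4.26, 3.17 and 3.95 at 0 min, 4.45, 2.95 and 3.17 at 10 min, 3.93, 2.89 and 3.74 at 50 min, 2.47, 2.64 and 2.86 at 110 min, and 2.95, 2.16 and 2.49 at 230 min. In all of these genes every 230 min array was below every 0 min array, but within a course 110 min could be the lowest point. Slopes were -0.13 log2 per hr for Rab2b (limma, adjusted p = 0.015), -0.14 for Rab36 (limma, adjusted p = 0.006) and -0.15 for Rab6b (limma, adjusted p = 0.0032). The falls of Rab2b without time course 3 (limma, adjusted p = 0.093) and of Rab36 without time course 2 (limma, adjusted p = 0.1) did not pass. Without the 0 min arrays neither Rab2b nor Rab36 passed (limma, adjusted p = 0.079 and 0.072). Rab2b also did not pass without the 230 min arrays (limma, adjusted p = 0.18), where Rab36 did. Both passed with either of the other time courses left out. All had low ratios already at 0 min, and how far the dim end of the arrays flattened their slopes was not tested.

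Among the brighter ER and Golgi probe sets, Rab1a averaged 44.4 ± 11 at 230 min and 66.1 ± 13 at 0 min (SD, n = 3 each), with 67.3% left, and Rab2a averaged 34.9 ± 12 and 61.8 ± 13, with 56.5% left. Their slopes were -0.18 and -0.22 log2 per hr. Rab18, which acts at the ER and lipid droplets, and Rab34, which acts at the Golgi and in lysosome positioning, had slopes of -0.18 each. Rab6a had -0.20. Rab43, which is not one of the brighter probe sets (0 min mean 3.21), had -0.24. The second probe set of Rab2a, with other probes, had 55.9% left at 230 min.

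In the early endosome group 8 of 8 fell, at a median of -0.22 log2 per hr, and 6 fell slower than the array median. Rab5a, Rab5b and Rab5c control the fusion of early endosomes. Rab5b had the shallowest slope of the group (-0.17; 68.4% left at 230 min) and Rab22a the steepest (-0.30; 47.4% left). Rab22a and Rab5a (-0.27) did neither on the relative scale. Rab21, known for integrin traffic, had 0.07 relative to the array median and passed narrowly (limma, adjusted p = 0.044). Rab4a and Rab4b, of the fast recycling route, had slopes of -0.24 and -0.19, and Rab31, which links the trans-Golgi network to endosomes, had -0.21. The second probe set of Rab5b had 64.9% left, close to the first.

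In recycling and surface delivery 8 of 8 fell, at a median of -0.21 log2 per hr. Apart from Rab35, 6 fell slower than the array median and Rab8a did neither. Rab14 had 33.7, 22.5 and 24.5 at 0 min, 28.0, 20.0 and 26.9 at 10 min, 25.9, 22.3 and 33.4 at 50 min, 18.5, 21.1 and 31.1 at 110 min, and 21.6, 12.3 and 21.1 at 230 min. Time course 3 held its level through 110 min and time course 1 did not. Its slope was -0.15 log2 per hr (limma, adjusted p = 0.0063). It did not pass without time course 2 (limma, adjusted p = 0.1) or without the 230 min arrays (limma, adjusted p = 0.43). It passed without time course 1, time course 3 or the 0 min arrays. Rab10, which with Rab8a and Rab13 is known for GLUT4 delivery, had a slope of -0.16 with 68.6% left at 230 min.

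Rab8a and Rab11a, Rabs of surface delivery and slow recycling, had the highest 50 min means relative to 0 min. Rab8a had 29.6, 18.6 and 15.9 at 0 min, 33.2, 21.8 and 19.0 at 10 min, 29.2, 29.4 and 27.6 at 50 min, 13.6, 14.4 and 16.2 at 110 min, and 16.7, 7.11 and 15.7 at 230 min. Its 50 min mean was 134% of the 0 min mean, but time course 1 did not share the difference (29.2 at 50 min, 29.6 at 0 min) and the contrast did not pass (0.48 ± 0.22 log2, SE; limma, adjusted p = 0.42). Rab11a was at 124% (0.33 ± 0.22; limma, adjusted p = 0.75). It had 9.58, 14.24 and 10.86 at 0 min and 14.39, 13.25 and 15.51 at 50 min, so that time course 2 did not share the difference. In both genes the 0 and 230 min arrays overlapped.

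The late endosome, lysosome and autophagy group had 5 of 5 fall, at a median of -0.33 log2 per hr. Rab7b and Rab9 fell faster than the array median, 0 fell slower, and Rab24, Rab12 and Rab7 did neither. Rab24, known for autophagy, averaged 6.73 ± 1.2 at 230 min and 15.4 ± 2.1 at 0 min, with 43.7% left. Rab12, which acts in degradation of recycling cargo, had 46.9% left. Rab7, the main Rab of late endosomes and lysosomes, had ratios of 32.6, 25.2 and 20.2 at 0 min, 24.9, 19.0 and 25.1 at 10 min, 20.1, 27.6 and 27.1 at 50 min, 13.1, 23.2 and 15.4 at 110 min, and 17.9, 8.46 and 18.5 at 230 min. Its relative slope was 0.09 ± 0.04 (SE, limma, adjusted p = 0.067).

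Of the remaining groups, Rab3d and Rab27b of regulated secretion fell with slopes of -0.17 and -0.22 log2 per hr, both slower than the array median. In the cilium and other group Rab40c and Rab23 fell faster, while Rab28, linked to photoreceptor cilia, had a slope of -0.21 and fell slower.

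**Figure D4:**
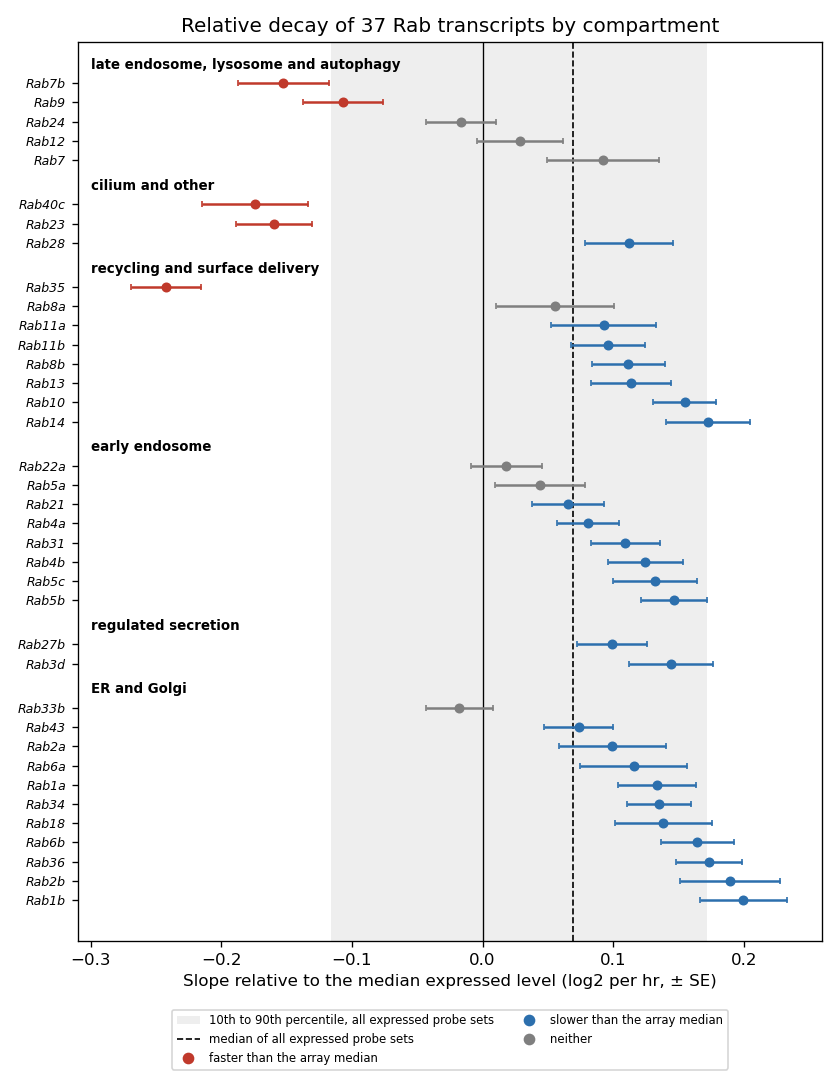
Slope relative to the median expressed level of the arrays (log2 per hr, point ± SE) of the 37 expressed Rab transcripts by compartment, with the 10th to 90th percentile of all expressed probe sets shaded (-0.12 to 0.17) and their median dashed (0.07). The 5 faster transcripts (red) had -0.24 to -0.11 and the 25 slower ones (blue) 0.07 to 0.20. With the median of all probe sets as the reference, 8 were faster and 0 slower.

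Rab genes of the same number were paired by name, and 10 pairs with both members expressed were compared. How alike the members of a pair are in sequence was not examined. The log2 difference of a pair within each array does not depend on how the array was scaled, and its slope in time was tested by permuting times within time courses (100000 resamples, two-sided, adjusted over the 10 pairs). Rab7 and Rab7b alone passed, with a slope difference of 0.24 ± 0.05 log2 per hr (Rab7 minus Rab7b, SE; 95% interval 0.13 to 0.36; permutation adjusted p = 0.0077). The difference was 0.24, 0.27 and 0.22 in time courses 1, 2 and 3. Rab7 averaged 14.9 at 230 min and 26 at 0 min, and Rab7b averaged 2.24 and 6.85. Without time course 2 the difference was 0.23 (permutation adjusted p = 0.11) and without time course 3 it was 0.25 (permutation adjusted p = 0.071).

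For the other 9 pairs a difference was not shown. The intervals of Rab1a minus Rab1b (-0.07; -0.12 to -0.01), Rab2a minus Rab2b (-0.09; -0.16 to -0.02) and Rab5a minus Rab5c (-0.09; -0.16 to -0.02) left out 0, but each had a permutation adjusted p of 0.067. Without time course 1, Rab1a minus Rab1b passed at -0.11 (permutation adjusted p = 0.034) and Rab2a minus Rab2b at -0.13 (permutation adjusted p = 0.046). Rab2b averaged 3.63 at 0 min, near the dim end, and Rab2a averaged 61.8. Rab5a minus Rab5b was -0.10 (-0.21 to 0.00; permutation adjusted p = 0.12). The intervals ran from -0.05 to 0.08 for Rab5b minus Rab5c, from -0.11 to 0.02 for Rab4a minus Rab4b, from -0.17 to 0.07 for Rab6a minus Rab6b, from -0.20 to 0.09 for Rab8a minus Rab8b and from -0.13 to 0.13 for Rab11a minus Rab11b. Each of these holds differences of the size seen for Rab1a and Rab1b, in one direction or the other.

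**Figure D5:**
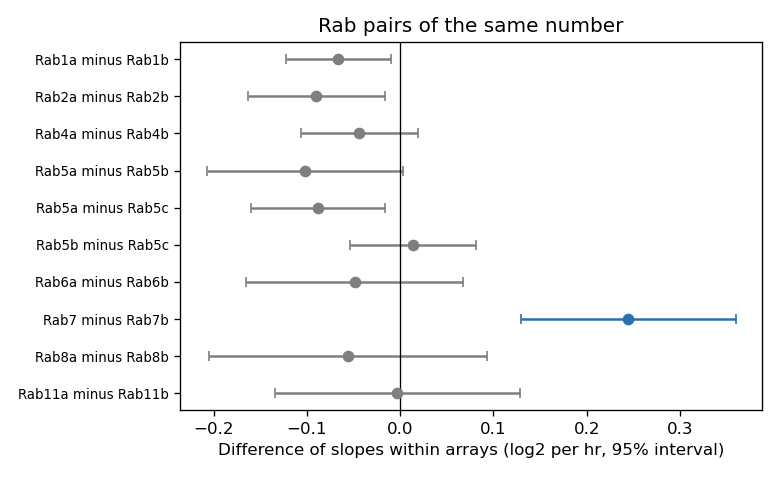
Difference between the slopes of 2 Rab genes of the same number within arrays (log2 per hr, first gene minus second, point with 95% interval) for the 10 pairs. The interval of Rab7 minus Rab7b, in blue, runs from 0.13 to 0.36, and the other 9 pairs, in grey, had adjusted p values above the threshold.

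Half-lives were fitted to each time course alone as an exponential decay of the linear ratios, and were called reliable where the p of the decay rate was under 0.05 and the 95% interval was narrower than 2 half-lives, in at least 2 of 3 time courses. These limits follow the methods, which do not say how the p of a fit was obtained, and a level filter stands in for their detection filter, so the set of reliable half-lives is not that of the study. Rab40c alone of the 37 met the limits, in time courses 1 and 2, or 2.70%, against 11.2% of expressed probe sets. Its half-life was 96.9 ± 26.5 min (SD, n = 3), from 73.6, 91.4 and 126 min. Rab35 followed at 113 ± 24.2 min (91.0, 108 and 139 min), with a p under 0.05 in all 3 courses but intervals too wide, such as 43.9 to 227 min in time course 1. Rab23 had 118 ± 46.1 min, Rab7b 141 ± 57.3 min and Rab9 142 ± 43.7 min, each reliable in 1 course.

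The median fitted half-life of the 37 was 5.35 hr, against 4.15 hr over all expressed probe sets, and the p was met in at least 2 courses for 10 of 37 (34.2% of all expressed probe sets). Spread differed between genes, with 2.79 ± 0.28 hr for Rab33b, 4.33 ± 0.81 hr for Rab21 and 21.5 ± 27 hr for Rab1b (SD, n = 3 each), none of them reliable. After division of each array by its 75th percentile Rab40c had a half-life of 327 min and 0 were reliable.

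Genes that act on Rabs were set beside them by the same trends, with lists written by hand. All fell among the expressed genes of these lists (7 of escort, prenylation and GDI, 42 GEFs, 29 GAPs and 55 effectors), as did 96.4% of all expressed probe sets. On the relative scale, 2 of 7 escort, prenylation and GDI genes were faster and 4 slower, 3 of 42 GEFs were faster and 12 slower, 7 of 29 GAPs were faster and 14 slower, and 6 of 55 effectors were faster and 23 slower, beside 15.6% faster and 50.2% slower among all expressed probe sets. Rab3ip (faster) and Dennd5a (slower) are on both the GEF and the effector list and are counted in each. The median slopes were -0.21, -0.28, -0.26 and -0.27 log2 per hr in that order, beside -0.22 for the Rabs and -0.25 for all expressed probe sets. The counts of slower genes, here and for the families below, rest on the same reference median as those of the Rabs.

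Rabif, a chaperone that holds nucleotide-free Rabs and is also known as MSS4, had the steepest slope of these lists (-0.61 log2 per hr; 2.26 at 230 min, against 10.3 at 0 min). Rabggtb, the catalytic subunit of the Rab geranylgeranyl transferase, was also faster than the array median (-0.40), while its partner Rabggta was not called (-0.28). Gdi2, a GDI, and Chml, an escort protein, had -0.17 and -0.16 and were slower. Among the GEFs Rabgef1, which activates Rab5, was steepest (-0.50), followed by Hps4 (-0.44), of the complex that activates Rab32 and Rab38, and Rab3ip (-0.39), which activates Rab8. Trappc6a (-0.17) and Trappc9 (-0.18), parts of the TRAPP complexes that act on Rab1 and Rab11, were shallowest.

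Among the GAPs Tbc1d25 (-0.57), Tbc1d10b (-0.49) and Rabgap1 (-0.46) were faster, and Evi5 (-0.14), Rabgap1l (-0.17) and Sgsm2 (-0.18) were slower. Tbc1d25 is known to act on Rab33b, and Tbc1d10b belongs to a family known to act on Rab35. The steepest effectors were Plekhm1 (-0.43), which joins Rab7 to lysosome fusion, Micall2 (-0.42), an effector of Rab8 and Rab13, and Pik3c3 (-0.42), the lipid kinase of early endosomes and autophagy. Myo5a and Rilp (-0.18 each), a motor of Rab27a and Rab11 cargo and a link of Rab7 to dynein, were shallowest. Rilp and Rabgap1l had 0 min means of only 2.67 and 3.38, where 1 marks the dim end. Their slopes are no clear measure of slow decay either.

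Transcripts of other small GTPases were counted in the same way, beside the same shares of all expressed probe sets. Arf and Arl transcripts were faster in 1 of 14, Arf6 (-0.57), which acts in endosomal recycling, and slower in 10. Arf4 and Arf1, of the Golgi, had slopes of -0.04 and -0.08 and were the only expressed transcripts of these lists whose fall did not pass the test. Ras family transcripts were faster in 2 of 19, Rit1 (-0.50) and Rap2b (-0.41), and slower in 10, with Rras shallowest (-0.12). Whether the families differ from one another was not tested.

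Among the 22 Rab transcripts below the level filter, a trend over all 25175 probe sets (limma) found 18 that fell and 4 that did not, Rab25, Rab33a, Rab38 and Rab39, where 75.8% of all probe sets fell. Their slopes were -0.22 to -0.03 log2 per hr. Rab40b, a relative of Rab40c, had the steepest of them (-0.22 ± 0.03, SE). Slopes of ratios near 1 are no measure of stability. Of these 22, 0 had a reliable half-life.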

How the data were processed

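The data were 15 arrays, 5 times in each of 3 time courses. The deposited values are ratios on a linear scale, for which the authors divided all probe set signals of an array by their 5th percentile. How the signals were summarised and corrected for background is not given in the sources used here. Array data have no count depth, and the number of arrays limits the precision. Ratios were log2 transformed with no pseudocount and tested with limma 3.58.1 (R 4.3.3, eBayes, Benjamini-Hochberg at 0.05 over 12544 expressed probe sets), with the replicate time course as a block. The numbers pair the samples, since the methods follow each course separately. Deviations from the time means correlated over 0.1 in 29 of 30 array pairs of the same number (median 0.362), against 14 of 60 of other numbers (median -0.216). The deviations at each time cancel over the 3 courses, so the negative median largely follows from the positive one and is no separate support. Half-lives and permutations used scipy 1.17.1 (Python 3.11.15). Fits were checked on simulated data. All 59 Rab genes were matched by gene number to RefSeq mouse genes (GRCm38.p6) to take names alone. No name was given to the 1492 probe sets annotated with several symbols and the 2639 with none. Members, gene lists and tests were chosen with earlier results of these data known. Values in every sample are given for the Rab genes with the 5 steepest and 5 shallowest slopes; from each other list up to 3 genes at either end are named. The samples given for Rab6a, Rab7, Rab8a and Rab11a were chosen after their values were seen. The alternatives covered scaling, pseudocount, filter, block, decay model, replicates and times. One further list of small GTPases is not reported here.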

Additional observations from a re-analysis of the deposited data

How the results depend on the processing

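Of the alternatives, the scaling of the arrays moved most. It shifted the median slope of all expressed probe sets by 0.181 log2 per hr (arrays divided by their median) and 0.317 (by their 75th percentile). On these scales 8 and 5 Rab transcripts fell and 0 and 24 rose. The slopes of Rab6b, Rab14, Rab36, Rab2b and Rab1b became 0.028, 0.036, 0.037, 0.053 and 0.063 with the median, and 0.16, 0.17, 0.17, 0.19 and 0.20 with the 75th percentile. With the median, the 8 that fell and the 0 that rose are the faster and slower counts given above, from the same fit. On that scale 5 were lower at 110 min and 7 at 230 min. Among transcripts above 0 on the relative scale, the following had slopes below 0 with arrays divided by their median. The slopes were -0.12 for Rab22a, -0.11 for Rab12, -0.093 for Rab5a, -0.081 for Rab8a, -0.071 for Rab21, -0.063 for Rab43 and -0.056 for Rab4a. They were -0.045 for Rab7, -0.044 for Rab11a, -0.041 for Rab11b, -0.038 for Rab27b, -0.037 for Rab2a, -0.027 for Rab31 and -0.025 for Rab8b. The rest were -0.024 for Rab28, -0.023 for Rab13, -0.021 for Rab6a, -0.012 for Rab4b, -0.0044 for Rab5c, -0.0031 for Rab1a and -0.0015 for Rab34. Rab35, Rab40c and Rab23 stayed faster than the array median under every alternative run. Rab7b did not pass without the 230 min arrays (limma, adjusted p = 0.2), nor did Rab9 without them, without time course 1 or with log2(ratio + 1) (limma, adjusted p = 0.055, 0.17 and 0.13).

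Leaving out 1 time course gave 15 to 25 slower Rab transcripts, 4 or 5 faster, 7 to 31 lower at 110 min, 22 to 36 lower at 230 min, 10 to 21 higher than the array median at 230 min (23 with all time courses), 0 or 1 reliable half-lives (Rab40c rested on time courses 1 and 2, so that 0 follows without either) and 0 to 3 pairs that differed. Without the 230 min arrays 15 were slower and 3 faster. Reliable half-lives numbered 4 by a line through log2 ratios, 10 by the p alone, and 0 with the 75th percentile or without the 0 min arrays. The 4 by the line did not include Rab40c, which was reliable in 1 course (126 min), but did include Rab35, Rab23 and Rab7b. With a constant floor of 1 Rab40c stayed reliable, but its half-life was 61.4 min in place of 96.9 min. For the pairs, 2 differed with log2(ratio + 1) and 2 with the 5th percentile subtracted. Relative slopes near 0 changed sign for Rab33b with log2(ratio + 1) (0.015), for Rab24 without the 230 min arrays (0.041) and for Rab8a without the 0 min arrays (-0.0054). Leaving out 1 time course, or the 110 min array of course 1 with the 230 min array of course 2, gave relative slopes of -0.037 to 0.013 for Rab24, -0.0056 to 0.044 for Rab22a, -0.013 to 0.06 for Rab12, -0.0032 to 0.079 for Rab5a and -0.014 to 0.11 for Rab8a. Leaving out 1 time course gave pair differences of -0.022 to 0.037 for Rab5b minus Rab5c, -0.13 to 0.02 for Rab8a minus Rab8b and -0.061 to 0.028 for Rab11a minus Rab11b, of which 0.023 was without time course 3. The difference turned to 0.01 for Rab11a minus Rab11b with log2(ratio + 1) and to 0.0059 for Rab6a minus Rab6b with the 5th percentile subtracted. The causes were not tested. With no replicate block 3 in place of 5 transcripts were lower than the array median at 230 min and 36 of 37 fell over time. Over the other alternatives on the 5th percentile scale 26 (without time course 2) to 37 fell.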
